A study of Mus musculus with 9 samples.

Results

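The kappa light chain variable genes are the 98 genes whose symbol begins with Igkv and that had 10 or more counts summed over the 9 tumors, out of 41128 genes counted. The table holds 105 Igkv rows. The 7 rows left out had at most 3 counts in total, and the member with the fewest had 17, so no gene lay close to the limit. No expression difference was used to choose them, although earlier results of these data were known when the group was chosen.

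RNA was sequenced from lymph node lymphomas of mice, 1 library per tumor. The study asked how loss of an allele of Smc3, a core subunit of the cohesin ring, changes lymphomas that arise from germinal center B cells. The 3 Bcl6 tumors carried IµBcl6 and were Smc3 wt/wt, and the 6 Smc3/Bcl6 tumors carried IµBcl6 and were Smc3 wt/-. IµBcl6 keeps the transcriptional repressor Bcl6 switched on in B cells under the Iµ promoter of the heavy chain locus, and by the study's description mice of both genotypes carried Cγ1-Cre, which is active in B cells from their entry into the germinal center on. The labels give no age and do not name animals, so p-values measure the spread between these tumors. They give the mesenteric node as the source of replicate 1 in both groups and only a lymph node for the rest, whereas the study's text describes all of them as mesenteric.

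An antibody light chain is built from a variable (V), a joining (J) and a constant gene. In a developing B cell a recombinase joins a V gene of the kappa locus to a J segment, and the joined exon is then spliced to the constant exon Igkc. The choice of V gene differs between B cells and is inherited by their daughters, so a population of many B cells uses many V genes, while the progeny of a single cell usually share the same V gene. A V gene can be in either orientation relative to the J segments, and joins by deletion or by inversion of the DNA between them. In germinal centers the variable exon is further altered by somatic hypermutation.

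Of the 98 genes, 96 were found by identifier in GENCODE M21 (GRCm38, the assembly also called mm10). They lie over 3.15 Mb of chromosome 6, from 67555497 to 70704177, upstream of Igkj1, which starts at 70722562. The annotation gives 95 of them as variable genes and 1, Igkv4-56, as a pseudogene. It gives 3 of the identifiers another symbol, Igkv4-83 for Igkv4-56, Igkv4-51 for Igkv4-73 and Igkv13-85 for Igkv12-47, and the symbols of the count table are used here. By these names the 98 genes fall into 19 families. On the genome 36 are on the plus strand, as are the J segments, and 60 on the minus strand.

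Only 4 genes ranked first in any tumor, and their sequences are shown because the results turn on telling their counts apart. Each is the last 280 bases of the annotated germline transcript, which lie within the variable exon. Capitals run from the TGT or TGC codon of the conserved cysteine, just before the antigen-binding loop called CDR3, to the end of the germline gene. The codon was found by searching the given strand of the last 60 bases for TANTNNTGN, which 93 of the 96 members with a transcript sequence held. The windows are chr6:70672098-70672377 on the plus strand for Igkv3-4, and on the minus strand chr6:69900424-69900703 for Igkv5-39, chr6:69700767-69701046 for Igkv4-50 and chr6:70406469-70406748 for Igkv6-15.
Igkv3-4: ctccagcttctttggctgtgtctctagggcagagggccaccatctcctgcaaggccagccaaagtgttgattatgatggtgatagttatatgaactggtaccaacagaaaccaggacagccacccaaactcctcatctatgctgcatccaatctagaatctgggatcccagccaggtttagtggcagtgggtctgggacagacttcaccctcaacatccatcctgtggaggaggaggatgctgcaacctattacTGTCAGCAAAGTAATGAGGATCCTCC
Igkv5-39: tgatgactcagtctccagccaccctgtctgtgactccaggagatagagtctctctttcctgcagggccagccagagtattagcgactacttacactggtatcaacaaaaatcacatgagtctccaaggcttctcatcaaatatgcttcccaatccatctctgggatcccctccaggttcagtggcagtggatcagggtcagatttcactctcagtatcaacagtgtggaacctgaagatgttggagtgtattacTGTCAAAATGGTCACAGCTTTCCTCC
Igkv4-50: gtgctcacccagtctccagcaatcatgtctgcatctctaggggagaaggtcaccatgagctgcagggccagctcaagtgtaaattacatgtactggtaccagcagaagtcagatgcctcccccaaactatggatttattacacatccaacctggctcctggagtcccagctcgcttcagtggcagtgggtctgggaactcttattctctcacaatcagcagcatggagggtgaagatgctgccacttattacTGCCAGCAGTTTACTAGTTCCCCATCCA
Igkv6-15: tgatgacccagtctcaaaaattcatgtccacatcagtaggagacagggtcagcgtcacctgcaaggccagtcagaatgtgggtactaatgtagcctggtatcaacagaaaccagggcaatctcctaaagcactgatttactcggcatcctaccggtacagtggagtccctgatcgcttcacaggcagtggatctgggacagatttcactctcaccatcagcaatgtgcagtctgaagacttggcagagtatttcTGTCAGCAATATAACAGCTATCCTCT

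These 4 genes belong to 4 families and were 61.3% to 66.2% identical to each other over these windows. Near copies exist within families, and the median member was 94.3% identical to its nearest fellow member. Of the runs of 50 bases in the Igkv5-39 transcript, 0% occurred in the transcript of another member, against 34.1% for Igkv3-4, 2.31% for Igkv4-50 and 15.8% for Igkv6-15. The nearest members were Igkv5-45 for Igkv5-39 (91.8% identity), Igkv3-3 for Igkv3-4 (93.2%), Igkv4-68 for Igkv4-50 (91.5%) and Igkv6-13 for Igkv6-15 (95%). How reads that match several genes were counted is not given in the sources used here, so counts of genes with near copies are less certain than those of Igkv5-39.

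The libraries held 10156728 to 17774577 counts, of which 22076 to 124299 per tumor (0.217% to 0.849%) fell on the Igkv genes. No pair of libraries was identical, and by rank correlation over the genes tested Smc3/Bcl6 tumor 2 stood apart, at 0.754 to 0.878 with the other tumors, while values among the other tumors ran from 0.876 to 0.978. Smc3 had 88.1 to 126 CPM (counts scaled to library size by edgeR's TMM method) in the Bcl6 tumors, 27.9 CPM in Smc3/Bcl6 tumor 2 and 89.7 to 111 CPM in the other Smc3/Bcl6 tumors. All 5 B cell markers were present in every tumor, and their summed level ran from 2522 to 9922 CPM.

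In 8 of the 9 tumors a single V gene took most of the Igkv counts. Igkv5-39 led in 4 tumors, Igkv3-4 in 3, and Igkv4-50 and Igkv6-15 in 1 each, and the first 2 of these led in tumors of both genotypes. Shares below are percentages of all Igkv counts of a tumor, with 95% Wilson intervals that cover counting error only.

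Igkv5-39, a minus-strand gene 822 kb from Igkj1, held 91.6% of Igkv counts in Bcl6 tumor 3 (95% interval 91.2% to 91.9%). Among the Smc3/Bcl6 tumors it held 87.9% in tumor 1 (87.7% to 88.2%), 98.2% in tumor 5 (98.1% to 98.3%) and 61.4% in tumor 6 (61.0% to 61.7%). In the other 5 tumors it held 0.302% to 2.01%. The tumors that it led and those that it did not were thus separated by a wide gap, with no tumor between 2.01% and 61.4%.

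Igkv3-4, a plus-strand gene only 50.2 kb from Igkj1, held 77.5% in Bcl6 tumor 1 (77.2% to 77.8%), 72.1% in Bcl6 tumor 2 (71.8% to 72.5%) and 68.4% in Smc3/Bcl6 tumor 3 (68.0% to 68.9%). It also ranked 3 in Smc3/Bcl6 tumor 6, with 8.36%, and held 0.00971% to 0.751% in the other 5 tumors. Igkv4-50 led only Smc3/Bcl6 tumor 2, with 62.8% (62.5% to 63.1%), and held at most 0.892% elsewhere. Igkv6-15 led only Smc3/Bcl6 tumor 4, with 25.3% (25.1% to 25.5%), and was the second gene of Bcl6 tumor 1, with 4.85%.

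**Figure D1:**
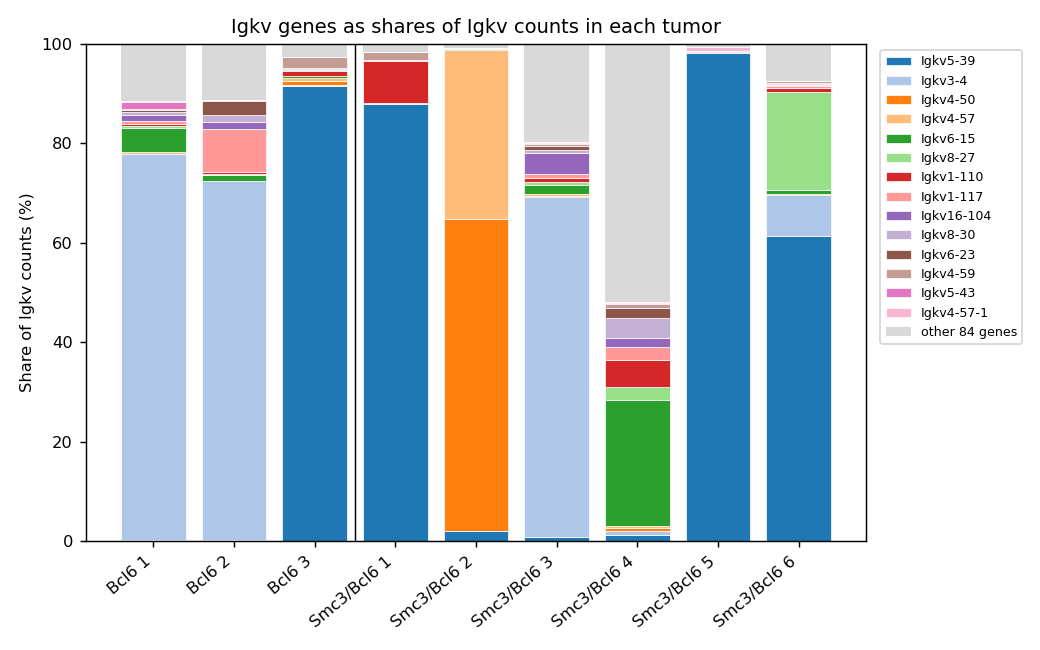
Share of Igkv counts (%, vertical axis) taken by each of the 14 genes that ranked 1 to 3 in any tumor, and by the other 84 genes together, stacked for each of the 9 tumors, with a line between the 3 Bcl6 and the 6 Smc3/Bcl6 tumors. Igkv3-4 or Igkv5-39 fills at least 61.4% of the bar in 7 tumors, and the leading gene of Smc3/Bcl6 tumor 4 fills 25.3%.

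Below the leading gene the tumors differed more from each other. The second gene was a different gene in each tumor with the exception of Igkv1-110, which was second in Smc3/Bcl6 tumors 1 and 4. Of the 14 genes that ranked 1 to 3 anywhere, 9 did so in exactly 1 tumor.

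Among the tumors led by Igkv3-4, the second and the third genes were Igkv6-15 (4.85%) and Igkv5-43 (1.46%) in Bcl6 tumor 1, Igkv1-117 (8.59%) and Igkv6-23 (2.81%) in Bcl6 tumor 2, and Igkv16-104 (4.37%) and Igkv6-15 (1.87%) in Smc3/Bcl6 tumor 3. The leading gene therefore exceeded the second by 8.40 to 16.0 times in these tumors. The 3 share their first gene but none of their second genes.

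Among the tumors led by Igkv5-39, Bcl6 tumor 3 and Smc3/Bcl6 tumor 1 had the same 2 genes behind it in reversed order. These were Igkv4-59 (2.32%) and Igkv1-110 (1.03%) in Bcl6 tumor 3, and Igkv1-110 (8.57%) and Igkv4-59 (1.66%) in Smc3/Bcl6 tumor 1. Igkv4-59 held at most 0.620% in every other tumor, and 74.3% of the runs of 50 bases in its transcript occurred in another member, so its counts are uncertain. In Smc3/Bcl6 tumor 5 the second gene, Igkv4-57-1, held 0.649% and the third, Igkv3-4, 0.142%, so Igkv5-39 exceeded the second gene 151 times. In Smc3/Bcl6 tumor 6 the second gene, Igkv8-27, held 19.7% (19.4% to 19.97%) and the third, Igkv3-4, 8.36% (8.15% to 8.57%), so Igkv5-39 exceeded the second only 3.12 times.

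Smc3/Bcl6 tumor 2 had 2 large genes of the same family. Igkv4-50 held 62.8% and Igkv4-57 34.0% (33.7% to 34.3%), and the third gene, Igkv5-39, 2.01%. Family 4, the largest with 27 members, held 96.99% of Igkv counts there and 0.821% to 7.07% in the other tumors. Because both genes were high in the same library, their germline sequences are set side by side, with the bases that differ in capitals. The windows were 88.6% identical, with 32 differing bases and 0 gaps over 280 bases. Both lie on the minus strand, Igkv4-57 at chr6:69575975-69576254.
Igkv4-50: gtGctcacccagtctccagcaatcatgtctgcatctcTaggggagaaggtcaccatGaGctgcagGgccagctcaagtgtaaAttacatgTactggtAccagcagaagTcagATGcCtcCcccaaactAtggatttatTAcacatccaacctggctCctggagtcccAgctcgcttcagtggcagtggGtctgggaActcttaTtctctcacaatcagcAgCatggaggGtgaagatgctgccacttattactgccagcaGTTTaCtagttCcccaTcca
Igkv4-57: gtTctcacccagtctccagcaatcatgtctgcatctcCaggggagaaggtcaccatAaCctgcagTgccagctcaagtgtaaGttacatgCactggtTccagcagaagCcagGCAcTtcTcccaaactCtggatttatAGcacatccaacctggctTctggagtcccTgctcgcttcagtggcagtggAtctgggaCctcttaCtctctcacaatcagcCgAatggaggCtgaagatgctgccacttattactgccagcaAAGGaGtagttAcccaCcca

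The differences are spread along the exon. The transcript of Igkv4-50 shares few runs of 50 bases with other members (2.31%), whereas 43.6% of those of Igkv4-57 occur in another member, its nearest being Igkv4-55 at 94.3% identity. Of the counts on both genes, Igkv4-57 took 35.1% in Smc3/Bcl6 tumor 2 (95% interval 34.9% to 35.4%) and 39.6% in Bcl6 tumor 3 (34.4% to 44.97%), and these intervals overlap. In the other 7 tumors it took 53.1% to 84.8%, in some on few counts. Smc3/Bcl6 tumor 1 had 17 counts of Igkv4-57 and 15 of Igkv4-50 (interval 36.45% to 69.13%). Smc3/Bcl6 tumor 5 had 12 and 6 (43.75% to 83.72%). The intervals of these tumors also overlap that of Bcl6 tumor 3. Whether the Igkv4-57 counts of Smc3/Bcl6 tumor 2 come in part from Igkv4-50 transcripts was not tested.

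Smc3/Bcl6 tumor 4 had no dominant gene. Igkv6-15 held 25.3%, Igkv1-110 5.53% and Igkv8-30 3.95%, and the genes below the third together held 65.2%, against 1.008% to 25.3% in the other tumors. In this tumor 27 genes reached 1% of Igkv counts, against 1 to 7 in the others, and 16 of them reached 1% in no other tumor. Of the 98 genes, 59 had their highest share here. It also had the highest number of Igkv counts, 124299, close to the 115707 of Smc3/Bcl6 tumor 2, which had only 3 genes at 1% or more.

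Over all tumors, 32 of the 98 genes reached 1% somewhere and 66 nowhere. No gene reached 1% in all 9 tumors. Igkv5-39 did so in 6, Igkv3-4, Igkv6-15 and Igkv16-104 in 4 each, and Igkv1-110 and Igkv1-135 in 3 each. At the other end, 62 genes had at least 1 count in every tumor and 22 stayed at or below 0.1% throughout.

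Evenness sums up these distributions in 1 number per tumor. It is the Shannon entropy of the 98 shares divided by its largest possible value, so that 1 means equal use of all genes and 0 means that a single gene takes every count. It was 0.294, 0.320 and 0.119 in Bcl6 tumors 1 to 3, and 0.116, 0.183, 0.399, 0.765, 0.0316 and 0.318 in Smc3/Bcl6 tumors 1 to 6. The effective number of genes, which is 1 over the sum of the squared shares, was 1.66, 1.89 and 1.19 in the Bcl6 tumors and 1.28, 1.96, 2.12, 12.7, 1.04 and 2.37 in the Smc3/Bcl6 tumors. By both measures Smc3/Bcl6 tumor 5 was the most uneven and tumor 4 the most even, and the Bcl6 tumors lay between them.

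**Figure D2:**
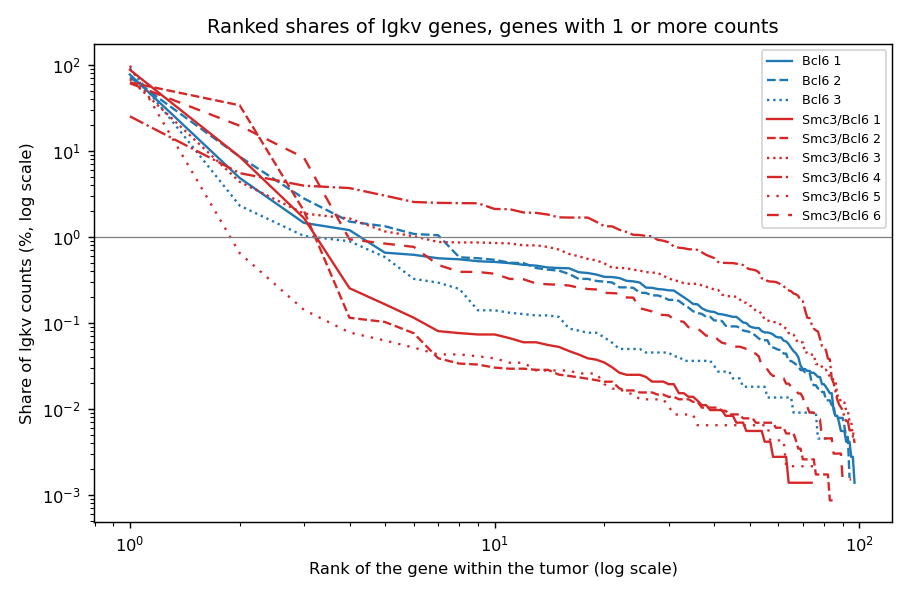
Share of Igkv counts (%, vertical log axis) against the rank of the gene within its tumor (horizontal log axis), 1 line per tumor, blue for Bcl6 and red for Smc3/Bcl6, for genes with at least 1 count; the grey line marks 1%. The line of Smc3/Bcl6 tumor 4 starts lowest, at 25.3%, and crosses the grey line only after 27 genes, while that of Smc3/Bcl6 tumor 5 crosses it after 1.

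The genotypes were compared on 7 measures with 1 value per tumor, by exact two-sided permutation, where the 84 ways to split the tumors allow no p under 0.0238. None of the 7 passed the threshold. The leading gene held 80.4% ± 10.1 (SD, n = 3) of Igkv counts in the Bcl6 and 67.3% ± 25.3 (SD, n = 6) in the Smc3/Bcl6 tumors (exact permutation p = 0.429, adjusted over the 7 measures 0.667), and the difference of -13.0 points shrank to -4.64 without Smc3/Bcl6 tumor 4 and to -7.33 with the block. The second and the third genes together held 7.02% ± 4.07 (SD, n = 3) and 15.1% ± 13.7 (SD, n = 6) (exact permutation p = 0.476, adjusted 0.667), and the difference of 8.12 points was 3.94 without Smc3/Bcl6 tumor 2.

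Evenness was 0.244 ± 0.109 (SD, n = 3) in Bcl6 and 0.302 ± 0.263 (SD, n = 6) in Smc3/Bcl6 tumors (exact permutation p = 0.857, adjusted 0.905). Its difference, 0.0579, turned to -0.0347 without Smc3/Bcl6 tumor 4 and to -0.00469 without Bcl6 tumor 3. The effective number of genes was 1.58 ± 0.356 (SD, n = 3) and 3.57 ± 4.49 (SD, n = 6) (exact permutation p = 0.429, adjusted 0.667), and the difference of 1.99 fell to 0.173 without Smc3/Bcl6 tumor 4. The number of genes at 1% or more was 4.67 ± 2.08 (SD, n = 3) and 7.17 ± 9.85 (SD, n = 6) (exact permutation p = 0.905, adjusted 0.905). That difference turned from 2.5 to -1.47 genes without Smc3/Bcl6 tumor 4, so the higher means of the Smc3/Bcl6 group in these 3 measures rest on that tumor.

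The level of kappa variable transcripts was compared as the sum over the 98 genes. It was 6364, 3433 and 2086 CPM in Bcl6 tumors 1 to 3, and between 2196 and 12240 with a median of 4703 CPM in the Smc3/Bcl6 tumors (log2 difference 0.52, exact permutation p = 0.405, adjusted 0.667). That difference was 0.94 without Bcl6 tumor 1, 0.13 without Bcl6 tumor 3 and 0.27 without Smc3/Bcl6 tumor 2. In bulk tissue fewer B cells and less RNA per cell cannot be told apart, so the sum was also set against the constant exon. There were 0.570 to 0.710 Igkv counts per Igkc count in the Bcl6 and 0.564 to 0.779 in the Smc3/Bcl6 tumors (log2 difference 0.11, exact permutation p = 0.381, adjusted 0.667). Here the difference ran from 0.04 without Bcl6 tumor 2 to 0.19 without Bcl6 tumor 3, and was 0.0036 with the block. The ratio thus varied less than the summed level, but it split by leading gene. It was 0.709 to 0.779 in Bcl6 tumor 3 and Smc3/Bcl6 tumors 1, 5 and 6, all led by the same V gene. In every other tumor it was 0.564 to 0.651. Whether counting of reads differs between leading genes was not tested. With 3 tumors against 6 a p above the threshold does not show that the genotypes were alike. In the pair whose label names the mesenteric node, replicate 1 of each genotype, the leading gene held 77.5% and 87.9% and evenness was 0.294 and 0.116, without replicates.

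Each gene's level was also compared between genotypes with edgeR's quasi-likelihood test over the 14057 genes that passed its filter on low counts, of which 83 were Igkv genes. The other 15 Igkv genes did not pass. No Igkv gene passed an adjusted p below 0.05 (Benjamini-Hochberg over all genes), and 0% of all genes tested did. At an unadjusted p below 0.05 edgeR again called 0 of the 83, against 0.562% of all genes, while DESeq2, which gave p-values for 55 Igkv genes, called 0 of them after adjustment and 3 without, against 1.52% of its genes.

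The study used looser limits, a log2 fold change beyond 0.56 in either direction together with an unadjusted p under 0.1. Past these, 3 of the 83 were higher in Smc3/Bcl6 tumors, against 1.28% of all genes tested, and 1 was lower, against 0.868% (4 in either direction, against 2.15%). In 0 of the 83 did the levels of the genotypes fail to overlap, against 0.484% of all genes. The 3 were Igkv4-50, Igkv4-57 and Igkv1-110, and the levels behind them were set by few tumors. DESeq2 called Igkv1-110 (DESeq2 unadjusted p = 0.0171) but gave no p-value for Igkv4-50 or Igkv4-57, so its 3 calls are not these 3 genes. When replicates 1 to 3 were paired across genotypes by their number (the replicate block), 0 were higher.

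Igkv4-50 had 8.64, 0.648 and 18.6 CPM in the Bcl6 tumors, 7689 CPM in Smc3/Bcl6 tumor 2 and 0.474 to 41.3 CPM in the rest of that group. The fitted log2 fold change was 7.12 (standard error 3.74, edgeR unadjusted p = 0.0857, adjusted p = 1), and it fell to 0.07 without Smc3/Bcl6 tumor 2 and to -0.79 with the block. The groups overlapped, since only 1 of the 6 Smc3/Bcl6 tumors was far above the Bcl6 tumors. Igkv4-57 followed the same course, with 4163 CPM in Smc3/Bcl6 tumor 2 and 0.948 to 47.1 CPM in the others of that genotype, against 3.62 to 21.2 CPM in Bcl6 tumors. The log2 fold change, 5.84 (standard error 3.09), fell to 0.04 without that tumor and to -0.24 with the block.

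Igkv1-110 had 31.6, 14.96 and 21.5 CPM in the Bcl6 tumors. In Smc3/Bcl6 tumors 1 to 6 it had 429, 12.6, 18.7, 458, 2.84 and 36.9 CPM, so that 2 tumors were high and the others lay around or below the Bcl6 values. The log2 fold change was 2.82 (standard error 1.54, edgeR unadjusted p = 0.0964, adjusted p = 1) and 0.89 with the block. Its near copy Igkv1-117, the second gene of Bcl6 tumor 2, is 96.8% identical.

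The gene called lower was Igkv3-3, with 98 counts over the 9 tumors. It had 44, 21 and 1 counts in Bcl6 tumors 1 to 3 and 0, 0, 13, 9, 0 and 10 counts in Smc3/Bcl6 tumors 1 to 6. The log2 fold change of -2.31 (standard error 1.27, edgeR unadjusted p = 0.0998) lost its call under 11 of the alternatives, DESeq2 among them. The 4 libraries with the most counts of Igkv3-3 after scaling to shares, namely Bcl6 tumors 1 and 2 and Smc3/Bcl6 tumors 3 and 6, were also the 4 with the highest shares of its nearest member Igkv3-4. Reads shared between the 2 were not tested. The next lower genes by p were Igkv5-43, at a log2 fold change of -2.44 (standard error 1.59), and Igkv3-4, at -2.93 (standard error 2.05), neither called in the comparison reported. The value of Igkv3-4 was -4.77 without Smc3/Bcl6 tumor 3, the tumor of its group that it leads, and -9.27 with the block. Without that tumor Igkv3-4 passed the looser limits (edgeR unadjusted p = 0.0531). Igkv5-43 passed them without Bcl6 tumor 3 (edgeR unadjusted p = 0.0786) and without Smc3/Bcl6 tumor 4 (edgeR unadjusted p = 0.0511).

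Over the 83 genes the median log2 fold change was 0.95 and 70 (84.3%) were above 0, against 57.4% and a median of 0.06 for all genes tested. This median turned to -1.16 without Smc3/Bcl6 tumor 4, and to -1.35 with the replicate block, which uses replicates 1 to 3 only. Without that tumor 9 of 77 Igkv genes were called lower instead of 1 of 83, against 1.08% of all genes in that fit.

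Similarity between tumors was measured by the overlap of their share profiles, the sum over genes of the smaller of both shares, where 100% means identical use. The 36 pairs fell into a high and a low set by leading gene. The 9 pairs with the same leading gene overlapped by 62.6% to 92.6% (median 85.5%) and the 27 pairs with different leading genes by 1.46% to 29.0% (median 3.56%), which follows in large part from the leading share itself. The most similar pair was Bcl6 tumor 3 with Smc3/Bcl6 tumor 5 (92.6%), of different genotype, followed by Bcl6 tumor 3 with Smc3/Bcl6 tumor 1 (92.0%).

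Pairs of the same genotype did not have a higher median overlap. The 18 pairs of the same genotype overlapped by 2.02% to 88.7% (median 4.69%) and the 18 pairs of different genotype by 1.46% to 92.6% (median 12.03%). Pairs share tumors and are not independent, so these values carry no test. Of the pairs with the same leading gene, 5 joined different genotypes and 4 the same genotype.

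With the 4 leading genes left out of all profiles, the overlap showed the rest of the repertoire. The highest values were then 78.8% between Bcl6 tumor 1 and Smc3/Bcl6 tumor 3, 67.8% between Smc3/Bcl6 tumors 3 and 4, and 66.0% between Bcl6 tumor 1 and Smc3/Bcl6 tumor 4, so a similar remainder was found in tumors with different leading genes. The pairs of the same genotype had a median of 22.8% and those of different genotype 36.6%. Smc3/Bcl6 tumor 2 shared 2.54% to 11.2% of its remainder with any other tumor, since Igkv4-57 alone made up 96.9% of it. In Bcl6 tumor 1 and Smc3/Bcl6 tumors 3 and 4 the evenness of the remainder was 0.858, 0.832 and 0.856, against 0.0572 to 0.674 in the others.

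**Figure D3:**
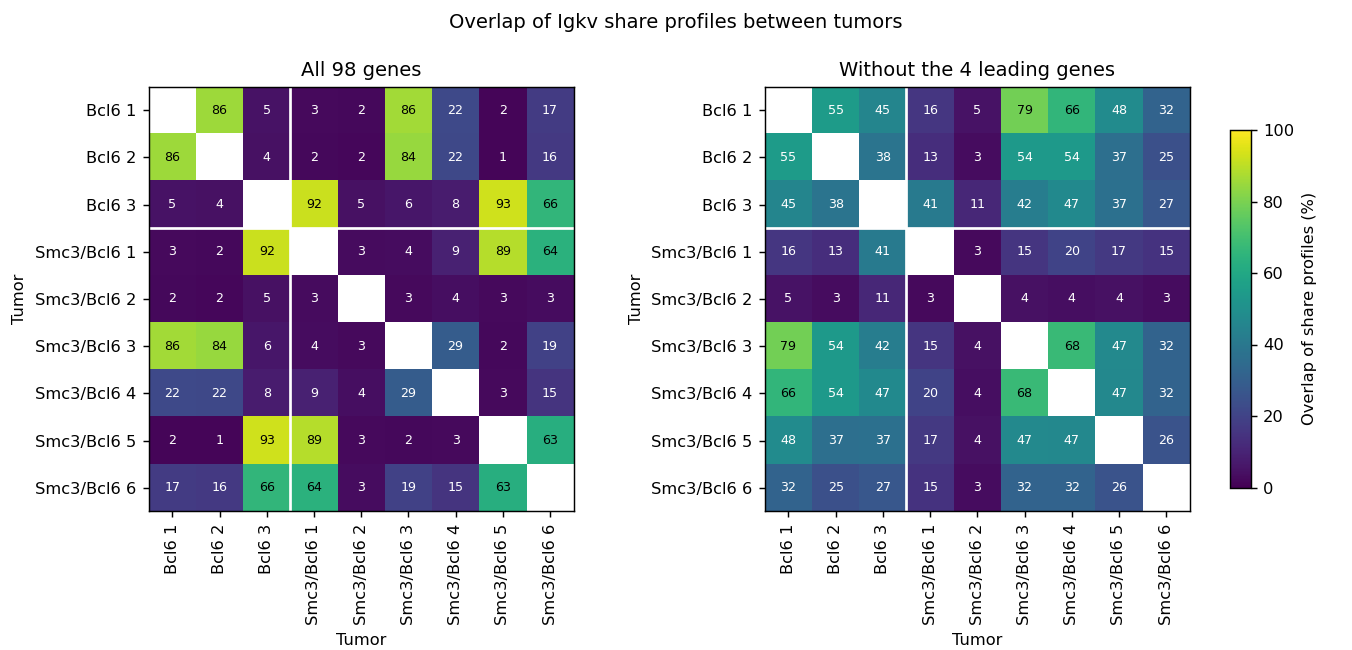
Overlap of Igkv share profiles (%, color and printed value) for each pair of the 9 tumors, over all 98 genes on the left and without the 4 leading genes on the right; white lines separate the genotypes. On the left the bright cells are the pairs led by the same gene, 62.6% to 92.6%; on the right the brightest is Bcl6 tumor 1 with Smc3/Bcl6 tumor 3 at 78.8%.

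The remainder also differed in amount. The 94 genes that led no tumor summed to 59.0 CPM in Smc3/Bcl6 tumor 5 and 149 CPM in Bcl6 tumor 3, to 601 to 1297 CPM in 5 tumors, and to 4297 and 5966 CPM in Smc3/Bcl6 tumors 2 and 4. In Smc3/Bcl6 tumor 4 this came from many genes, Igkv1-110 (7.67%), Igkv8-30 (5.48%) and Igkv8-24 (5.14%) being the highest shares of the remainder, and in Smc3/Bcl6 tumor 2 from Igkv4-57. Smc3/Bcl6 tumor 4 had the highest summed level of B cell markers (9922 CPM, against 2522 to 8007 in the others) and of 4 erythroid markers (9403 CPM, against 31.1 to 3524), and Vpreb3, a VpreB-like gene of B cells, was highest there at 66.2 CPM. The part of these cells in its V gene profile was not tested. All 7 T cell markers were present in every tumor and summed to 106 to 1744 CPM in tumors led by Igkv3-4 and 27.8 to 1417 CPM in those led by Igkv5-39.

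The leading genes were spread over the locus. They lay 50.2 kb (Igkv3-4), 316 kb (Igkv6-15), 822 kb (Igkv5-39) and 1021 kb (Igkv4-50) from Igkj1. Counts on plus-strand genes, which join by deletion, made up 83.2% to 88.5% of located Igkv counts in the tumors led by Igkv3-4 and 0.608% to 12.8% in those led by Igkv5-39. In Smc3/Bcl6 tumor 4 they made up 33.8%, where 36 of the 96 located genes are on this strand. Genes within 1000 kb of Igkj1 took 62.7% of the counts in this tumor and 82.6% to 98.8% in the others, with the exception of Smc3/Bcl6 tumor 2 at 2.57%, where Igkv4-50 and Igkv4-57 lie 1021 and 1146 kb away.

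**Figure D4:**
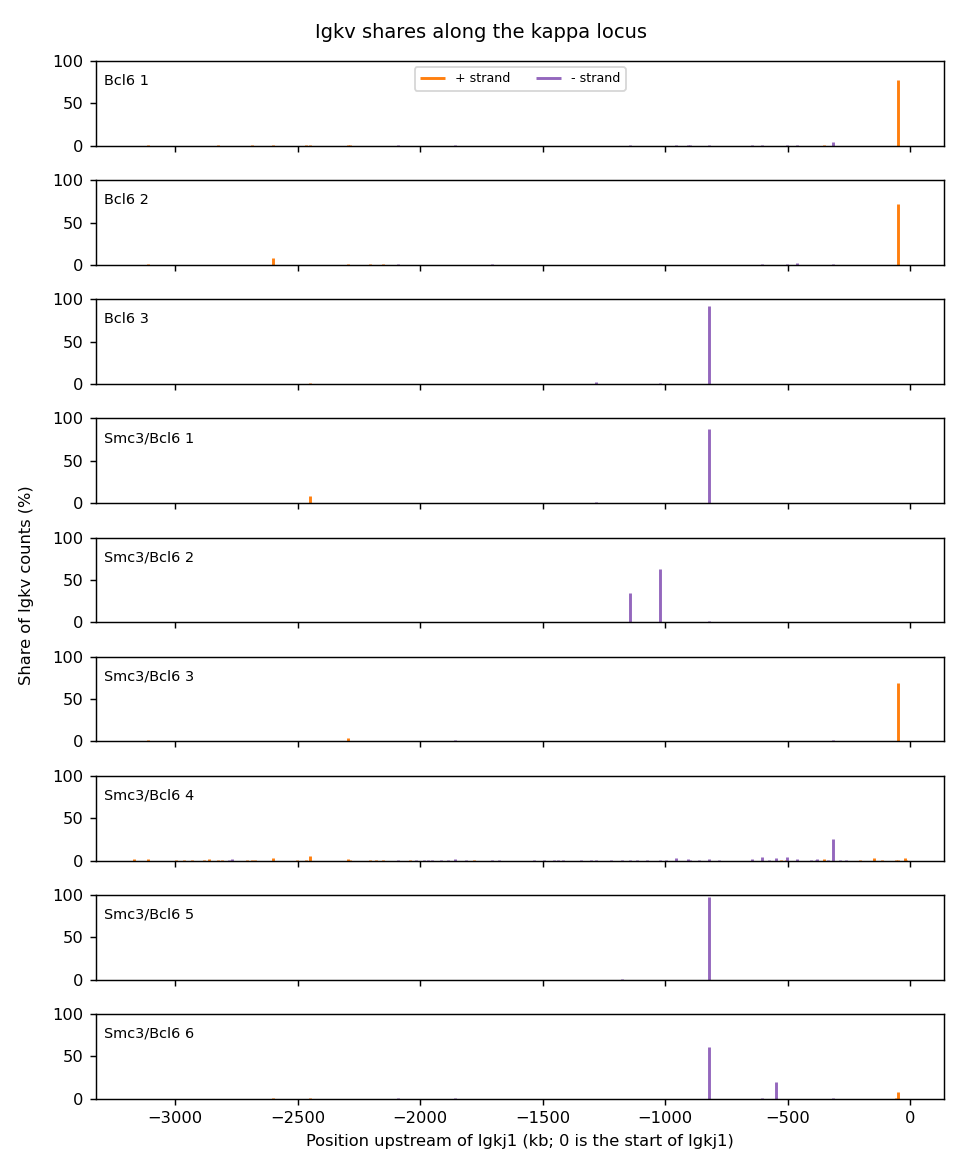
Share of Igkv counts (%, vertical axis) of each of the 96 located genes against its position upstream of Igkj1 (kb, horizontal axis), 1 panel per tumor, orange for plus-strand and purple for minus-strand genes. A single tall line stands at 50.2 kb or 822 kb in 7 tumors, a pair of lines near 1021 and 1146 kb in Smc3/Bcl6 tumor 2, and many short lines along the locus in Smc3/Bcl6 tumor 4.

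The rows of the J segments were read as well, although they held few counts, 605 to 7092 per tumor. Whether all these counts come from joined V-J exons was not tested. Smc3/Bcl6 tumor 2 was the most uneven, with 96.6% of Igkj counts on Igkj5 (95% Wilson interval 96.1% to 97.1%) and 0 of 4933 on Igkj3, which allows a share of up to 0.0608% when 3 counts are taken as the floor and 0.0778% by the Wilson bound. The tumors led by Igkv5-39 did not share a J profile. Igkj1 was first in Bcl6 tumor 3 (63.5%, 59.6% to 67.2%) and in Smc3/Bcl6 tumor 1 (71.9%, 69.9% to 73.8%), whereas Igkj5 was first in Smc3/Bcl6 tumor 5 (67.6%, 65.0% to 70.1%). In Smc3/Bcl6 tumor 6 Igkj1 (45.4%) and Igkj2 (37.1%) were both high.

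In the tumors led by Igkv3-4 no J segment passed 38.9%. Igkj1 held 38.9% in Bcl6 tumor 1 and 38.5% in Smc3/Bcl6 tumor 3, with Igkj5 second at 22.2% and 23.4%, and in Bcl6 tumor 2 Igkj5 held 37.7% and Igkj1 33.5%. In Smc3/Bcl6 tumor 4 Igkj2 was first at 41.6%. Reads of a V-J exon may be counted on the V gene or on the J segment, so these shares describe the counted rows and not whole transcripts or J usage.

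**Figure D5:**
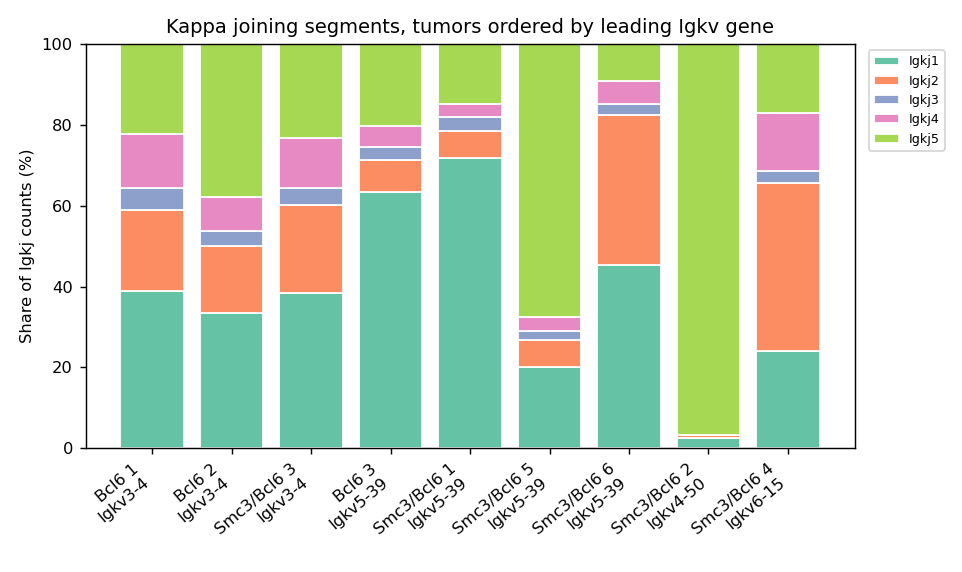
Share of Igkj counts (%, vertical axis) on Igkj1 to Igkj5, stacked for each tumor, with tumors ordered by leading Igkv gene, which is printed under the tumor's name. Igkj5 fills 96.6% of the bar of Smc3/Bcl6 tumor 2 and 67.6% of that of Smc3/Bcl6 tumor 5. In the other tumors led by Igkv5-39, Igkj1 fills 63.5% (Bcl6 tumor 3), 71.9% (Smc3/Bcl6 tumor 1) and 45.4% (Smc3/Bcl6 tumor 6).

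The leading heavy chain variable gene went with the leading kappa gene in most tumors. Ighv1-64 was first in all 3 tumors led by Igkv3-4 (21.6%, 23.1% and 16.7% of Ighv counts), Ighv3-1 in 3 of the 4 led by Igkv5-39 (58.8%, 56.5% and 77.6%), and Ighv9-4 in the fourth, Smc3/Bcl6 tumor 6 (53.5%), where Ighv1-64 was second at 10.8% and Igkv3-4 held 8.36% of Igkv counts. The second heavy chain gene was Ighv1-56 in Bcl6 tumor 1 (9.955%) and Smc3/Bcl6 tumor 3 (8.94%). In Bcl6 tumor 2 it was Ighv1-66, at 20.2% close to the first. Ighv3-8 was second in the tumors led by Ighv3-1, with 11.8% to 21.8%. Read sharing between related Ighv genes was not tested. Smc3/Bcl6 tumor 2 had 92.4% of Ighv counts on Ighv8-12 and tumor 4 only 9.77% on its first gene, Ighv5-17. Lambda variable genes took 1.27% to 22.2% of light chain variable counts, so kappa genes held the larger part in every tumor.

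The other genes of the kappa and lambda loci and the factors that act on them were read from chosen lists. Of 10 tested rows of the loci 1 was called higher with the looser limits and 0 lower, against 1.28% and 0.868% of all genes tested. The row called was Igkj5, at 504.5 CPM in Smc3/Bcl6 tumor 2 and 11.1 to 80.1 CPM in the other tumors. Among 15 tested rows of transcription factors that bind kappa promoters and enhancers, 0 were called, against 2.15% of all genes in either direction. Pax5, which keeps B cell identity, had 2.96 CPM in Smc3/Bcl6 tumor 2 and 14.7 to 56.0 CPM in the others. Spib, an ETS factor of the kappa enhancer, had 235 to 909 CPM. The recombinase genes Rag1 and Rag2 were at or under 0.209 CPM in every tumor. Of light chain recombination 0 of the 2 tested rows were called, and of hypermutation 0 of 5 genes, against the same 2.15%. In lists this short, 0 calls lie near that share. The 7 plasma cell markers in the table summed to 5496 CPM in Smc3/Bcl6 tumor 2, which also had the highest Igkc (21700 CPM) and Igkv (12240 CPM) levels, and to 722 to 2158 CPM in the others. Before TMM scaling, Igkv counts were 0.847% of the library in Smc3/Bcl6 tumor 2 and 0.849% in tumor 4, so the Igkv ranking depends on scaling. The plasma cell sum is carried by Mzb1 (3381 CPM), Xbp1 (1262 CPM) and Derl3 (755 CPM), genes of protein secretion through the endoplasmic reticulum. Prdm1, the plasma cell repressor, was at its lowest there (31.2 CPM, against 38.7 to 89.6), and Sdc1 (32.5 CPM) and Tnfrsf17 (1.06 CPM) were not highest.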

How the data were processed

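RNA from 9 tumors was sequenced and, per the study's methods, aligned to mm10 with STAR and counted per gene with featureCounts. The authors deposited these counts without normalization, and 0 columns lacked a sample. Groups and replicate numbers came from the sample labels. Igkv members and gene lists were chosen with earlier results of these data known. The genes named ranked 1 to 3 among Igkv genes in a tumor, reached 1% in all 9 tumors (0 did), were among the 3 higher and 3 lower by p between genotypes, or belong to the lists. Other Igkv genes named (Igkv1-135, Igkv8-24, Igkv4-56 and nearest members by sequence) and the Ighv genes were chosen after their values were seen.

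Shares are counts of a gene over all Igkv counts of a tumor, with 95% Wilson intervals. The test of genotype was edgeR's quasi-likelihood test over all genes (edgeR 4.0.16, R 4.3.3, TMM, filterByExpr), checked on simulated data, and single values were compared by exact permutation with SciPy 1.17.1. DESeq2 1.42.0, other filters, scalings, thinning to equal depth, the tissue label, the replicate block and each tumor left out were alternatives. Identities are global alignments (Biopython 1.88). Deviations of the same-numbered tumors from their group means correlated at 0.443, 0.113 and 0.155 for replicates 1 to 3. Tumors of different number were not compared in this way. The numbers, which come only from the labels, were treated as pairs only in the replicate block, and the tests reported were unpaired. Depth was 22076 to 124299 Igkv counts per tumor, and the intervals cover counting error only.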

Additional observations from a re-analysis of the deposited data

Results flagged for a closer look

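On 11 measures, the gap of the highest or lowest Smc3/Bcl6 tumor to its nearest fellow was set against the range of the 6. The limit was Dixon's 95% critical value, which chance passes in about 1 in 20 groups of normally distributed values. Whether that rate holds for shares was not tested. The 3 Bcl6 tumors were too few for this check. Smc3/Bcl6 tumor 4 stood apart by its effective number of Igkv genes, 12.7 against at most 2.37 in the other 5, by its 27 Igkv genes at 1% or more against at most 6, and by its Igkv6-15 share of 25.3% against at most 1.87%. Smc3/Bcl6 tumor 3 stood apart in its group by its Igkv3-4 share of 68.4%, the next being 8.36%. Bcl6 tumors 1 and 2, with 77.5% and 72.1%, were outside this check. Smc3/Bcl6 tumor 2 stood apart by its Igkv4-50 share of 62.8%, the next being 0.4996%. The 3 flagged shares belong to genes chosen because they led a tumor, so their flags restate this and add no separate result. The flags of Smc3/Bcl6 tumor 4 all come from the same 98 shares, so they are not separate results either.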

How the results depend on the processing

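No alternative gave an Igkv gene an adjusted p below 0.05, and none of the 7 measures passed the threshold under any alternative (lowest exact permutation p 0.143, and the block allows no p under 0.25). The direction of 2 measures was not stable. The genotype difference in evenness ran from -0.0347 to 0.112 with each tumor left out in turn and was -0.0118 with the replicate block, and that in the number of genes at 1% or more ran from -1.47 to 3.73 and was -0.667 with the block. The count of Igkv genes higher in Smc3/Bcl6 tumors at the looser limits was 3 in the comparison reported, 8 of 98 with no filter beyond 10 counts in total (1.95% of all genes), 1 of 83 with the tissue label as a covariate (0.925%), 0 of 76 with the replicate block (0.337%) and 0 to 5 with each tumor left out (0.578% to 2.43%). The count lower was 1, and became 2 with no filter (1.61% of all genes), 0 with DESeq2, with its size factors in edgeR, with the tissue label and with immunoglobulin genes left out of the library sizes (0.683% to 1.37%), and 0 to 9 with each tumor left out (0.44% to 2.32%), the 9 without Smc3/Bcl6 tumor 4.

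The median log2 fold change of Igkv genes turned to -1.35 with the replicate block and ran from -1.16 (without Smc3/Bcl6 tumor 4) to 1.97 (without Bcl6 tumor 1) with each tumor left out. With the block the log2 fold change turned to -0.79 for Igkv4-50, -0.24 for Igkv4-57 and -2.17 for Igkv6-15, which ran from -2.67 (without Smc3/Bcl6 tumor 4) to 4.01 with each tumor left out. That of Igkv5-43 turned to 0.88 with the tissue label and ran from -3.61 to 1.96 (without Bcl6 tumor 1) with each left out, and that of Igkv5-39, 1.51, became 6.84 without Bcl6 tumor 3. The cause of these changes was not tested, beyond the left-out tumors themselves. The median overlaps were lower for the same than for different genotypes under each of the 4 alternatives. Read assignment between near copies within a family could not be checked from counts, and Igkv3-3 rests on 98 counts.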
